A study of Mus musculus with 3 samples.

Results

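Nos2 and Arg1 encode the enzymes that compete for arginine in wound cells, and they were followed here with 5 partners of the same pathway, Arg2, Ass1, Slc7a2, Odc1 and Nos3. The 7 genes were chosen by name with earlier results of these data known, and their UMIs (unique molecular identifiers, 1 per captured probe pair) were read from the deposited count matrices. Of the 7, 6 have a feature among the 19070 features of each matrix; Nos3, the endothelial nitric oxide synthase, has none under that symbol and is not analysed here. The samples are full-thickness splinted wounds of 5 mm on the backs of C57BL/6J mice, females wounded at postnatal day 50, taken 5 days later. One group had gelatin methacryloyl hydrogel loaded with apoptotic neutrophils (AN-GelMA), one had the gel alone (GelMA), and one was left untreated. In both gel groups 20 µL of gel was hardened on the wound by 1 minute of UV light, a step described for the gels only. All mice were of the same strain, sex and age, and the labels name no genetic modification. RNA of single fixed cells was counted with gene probes, in 1 library per group, and the number of mice in a library is not stated.

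Nitric oxide synthase 2 turns arginine into nitric oxide and citrulline, and it is induced in inflamed tissue by cytokines and microbial products. Arginase 1 and its mitochondrial relative arginase 2 split arginine into urea and ornithine, the starting point for polyamines and proline. Slc7a2 carries arginine into the cell, Ass1 takes the first step that rebuilds arginine from citrulline, and Odc1 makes the first polyamine from ornithine. In wound macrophages, Nos2 is a textbook marker of inflammatory activation and Arg1 of repair-type activation, so the pair is often read as opposite ends of one scale.

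The AN-GelMA, GelMA and untreated libraries kept 9094, 10687 and 5721 cells after filtering, 25502 in all, at medians of 1116, 1476 and 1115 UMIs per cell. Cells were clustered without the pathway genes and named from marker genes, and a class name means cells like that class by those markers. Macrophages numbered 1538, 386 and 655 cells in AN-GelMA, GelMA and untreated wounds, and fibroblasts 2021, 641 and 1062. Cells of the hair follicle inner layers numbered 44 in AN-GelMA, 2701 in GelMA and 188 in the untreated wound, so the GelMA library was rich in hair-forming cells. Between 94 and 135 barcodes were shared by each pair of libraries. A level is given in CPM, the UMIs of a gene per 1000000 UMIs of the same class and library, with a 95% Poisson interval in parentheses. Intervals cover counting error only, and the UMIs of a gene sit in few cells, so the true uncertainty is wider. With 1 library per group there is no test between groups, and higher and lower mean a ratio of at least 1.5 with 20 or more UMIs over both sums, unless values are only set side by side. Levels are compared within a gene only, since genes differ in their probes.

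Nos2 was above all a fibroblast transcript. Fibroblasts held 968 of the 1139 Nos2 UMIs of the AN-GelMA library (85.0%) and 866 of the 1007 of the untreated library (86.0%), but 3 of the 62 of the GelMA library. The fibroblast level was 399 (374 to 425) CPM in AN-GelMA, 4.40 (0.906 to 12.8) CPM in GelMA and 679 (634 to 725) CPM in the untreated wound. The GelMA value stood far below both others, while AN-GelMA was lower than the untreated wound by less than 2 times. The log2 ratio was 6.50 (4.95 to 8.78) for AN-GelMA over GelMA, -7.27 (-9.55 to -5.72) for GelMA over untreated and -0.77 (-0.90 to -0.63) for AN-GelMA over untreated. The last was -0.58 with each cell assigned to its class by its own markers, just short of a ratio of 1.5, which ends that call. At least 1 Nos2 UMI was seen in 198 of 2021 AN-GelMA fibroblasts, 3 of 641 GelMA fibroblasts and 146 of 1062 untreated fibroblasts. With every cell thinned to 800 UMIs those shares were 10.4%, 0.271% and 12.4%, in the same order, with 611, 272 and 157 shallower cells left out.

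Other classes carried Nos2 at lower levels, and their order differed between libraries. In AN-GelMA, neutrophils followed the fibroblasts with 96.6 (44.2 to 183) CPM from 9 UMIs, then endothelial cells with 65.4 (42.3 to 96.5) and macrophages with 48.3 (38.1 to 60.3). The intervals of these 3 neighbours overlapped, and keratinocytes stood below them at 6.50 (4.72 to 8.72) CPM. In GelMA the highest class was the endothelial cells, which held 35 of the 62 UMIs of that library at 88.6 (61.7 to 123) CPM, and whose interval overlapped that of the neutrophils at 49.4 (18.1 to 107) CPM. In the untreated wound, neutrophils at 74.3 (15.3 to 217) CPM, endothelial cells at 57.8 (37.4 to 85.3) CPM and macrophages at 56.9 (41.2 to 76.6) CPM again overlapped. Endothelial cells, the lining of blood vessels, had no lower Nos2 level with GelMA: the log2 ratio was -0.44 (-1.24 to 0.34) for AN-GelMA over GelMA and 0.62 (-0.17 to 1.42) for GelMA over untreated. The second passed the ratio of 1.5 in the upward direction, and both intervals include 0. In keratinocytes, the epidermal cells, the level was 6.50 CPM in AN-GelMA, 0.665 in GelMA and 9.29 in the untreated wound, the same order as in fibroblasts. Such low keratinocyte values follow the abundance of Nos2 in each library, and the part of free RNA in them was not tested.

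**Figure D1:**
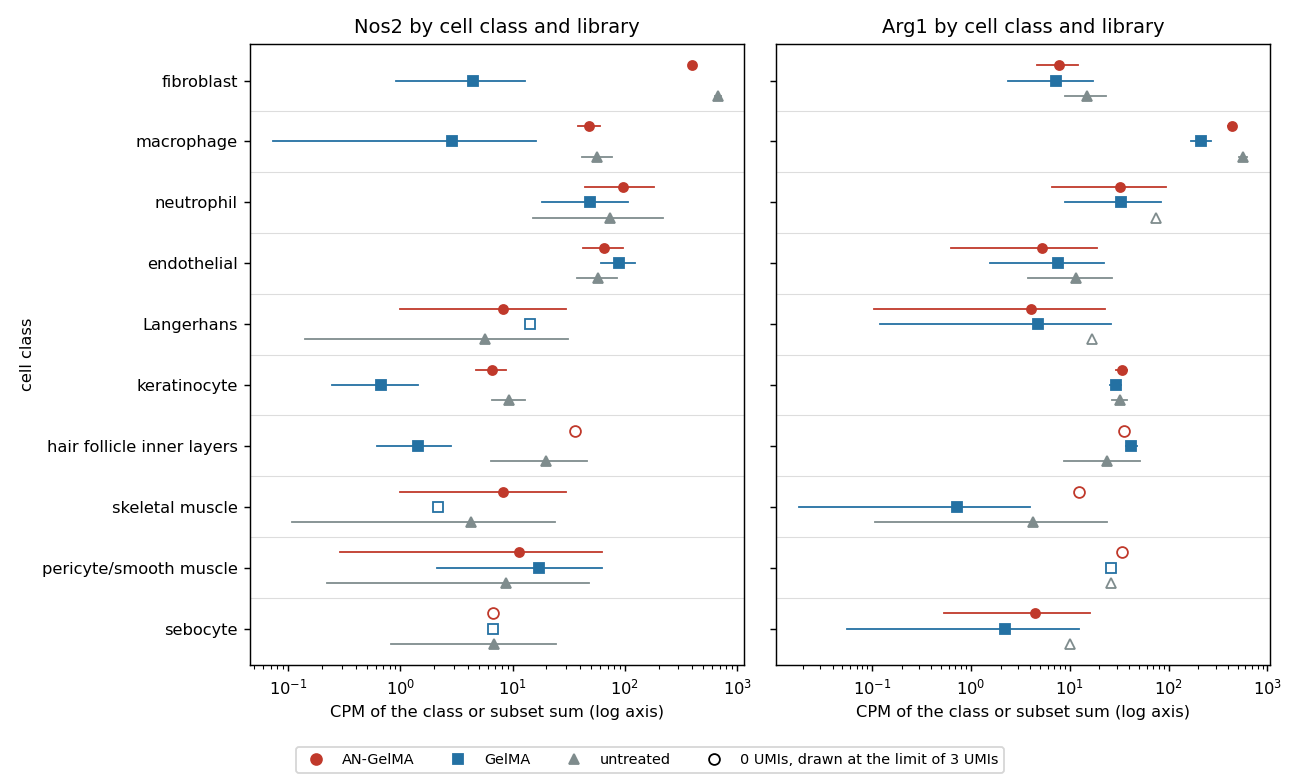
Levels of Nos2 (left) and Arg1 (right) in CPM on a log axis by cell class, with 1 point per library and its 95% Poisson interval; open symbols mark 0 UMIs and stand at the limit of 3 UMIs. Fibroblast Nos2 stood at 399 CPM in AN-GelMA, 4.40 in GelMA and 679 in the untreated wound, while endothelial Nos2 kept overlapping intervals in all 3 libraries; Arg1 was highest in macrophages.

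The fibroblast signal came from a few subsets. The class was divided into 8 clusters, again without the pathway genes, and subset levels from fewer than 50 cells are given with their UMIs or cells and were not compared. The highest level was in a subset led by Saa3, Prg4, Ptx3 and Il6, genes of the acute-phase and inflammatory response, with 1178 (1084 to 1278) CPM in 408 AN-GelMA cells, 1 UMI in 25 GelMA cells and 3063 (2836 to 3303) CPM in 182 untreated cells. Within this subset AN-GelMA was lower than the untreated wound at a log2 ratio of -1.38 (-1.54 to -1.22), a wider gap than in the class as a whole. Of the AN-GelMA cells 108 of 408 had a Nos2 UMI, against 102 of 182 untreated cells, so both the share of positive cells and the UMIs per positive cell were lower with AN-GelMA. A subset led by Tnfaip6, a hyaluronan-binding protein of inflammation, and by mitochondrial transcripts had 721 (628 to 823) CPM in AN-GelMA, 0 UMIs in 12 GelMA cells and 611 (474 to 776) CPM in the untreated wound. A cycling subset had 271 (224 to 324) CPM in AN-GelMA, 0 UMIs in 41 GelMA cells and 374 (306 to 453) CPM in the untreated wound. In these 2 subsets AN-GelMA and untreated levels were within 1.5 times.

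A small subset led by the macrophage genes Mrc1, Ms4a7 and Csf1r had 9 Nos2 UMIs in 24 AN-GelMA cells, 1 in 8 GelMA cells and 7 in 26 untreated cells, at 234 (137 to 375) CPM over the 3 libraries. Levels were lower in the next 3 subsets. The subset led by Pi16, a marker of adventitial-type fibroblasts, had 51.2 CPM in AN-GelMA and 39.1 CPM in the untreated wound. It had 0 UMIs in 49 GelMA cells. The limit of 3 UMIs in GelMA stands at 53.1 CPM, so a lower level was not detectable there. The subset led by Mmp13 and Mmp11, proteases of matrix remodelling, had 31.5, 0 and 19.2 CPM in AN-GelMA, GelMA and untreated wounds. The Abca8a subset, which made up 8.81%, 44.5% and 10.9% of the fibroblasts of the AN-GelMA, GelMA and untreated libraries, had 1, 1 and 0 UMIs. The Saa3 subset was 20.2% of AN-GelMA fibroblasts, 3.90% of GelMA fibroblasts and 17.1% of untreated fibroblasts. With all libraries set to the same mix of subsets the AN-GelMA over GelMA log2 ratio was 5.42, where the GelMA side rests on the few UMIs above. The part of subset sizes in the Nos2 level was not tested. At a finer division, the highest level was in cells led by Ptgs2, Pgf, Ndrg1 and Vegfa, genes of prostaglandin synthesis, vessel growth and the response to low oxygen. These held 1813 CPM in 184 AN-GelMA cells, 1 UMI in 15 GelMA cells and 3839.6 CPM in 127 untreated cells. In that division the Saa3, Prg4 and Ptx3 cells held 619 CPM in 266 AN-GelMA cells and 1066 CPM in 58 untreated cells. They had 0 UMIs in 17 GelMA cells. The finer division was made anew from all fibroblasts, so it does not split the subsets above.

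**Figure D2:**
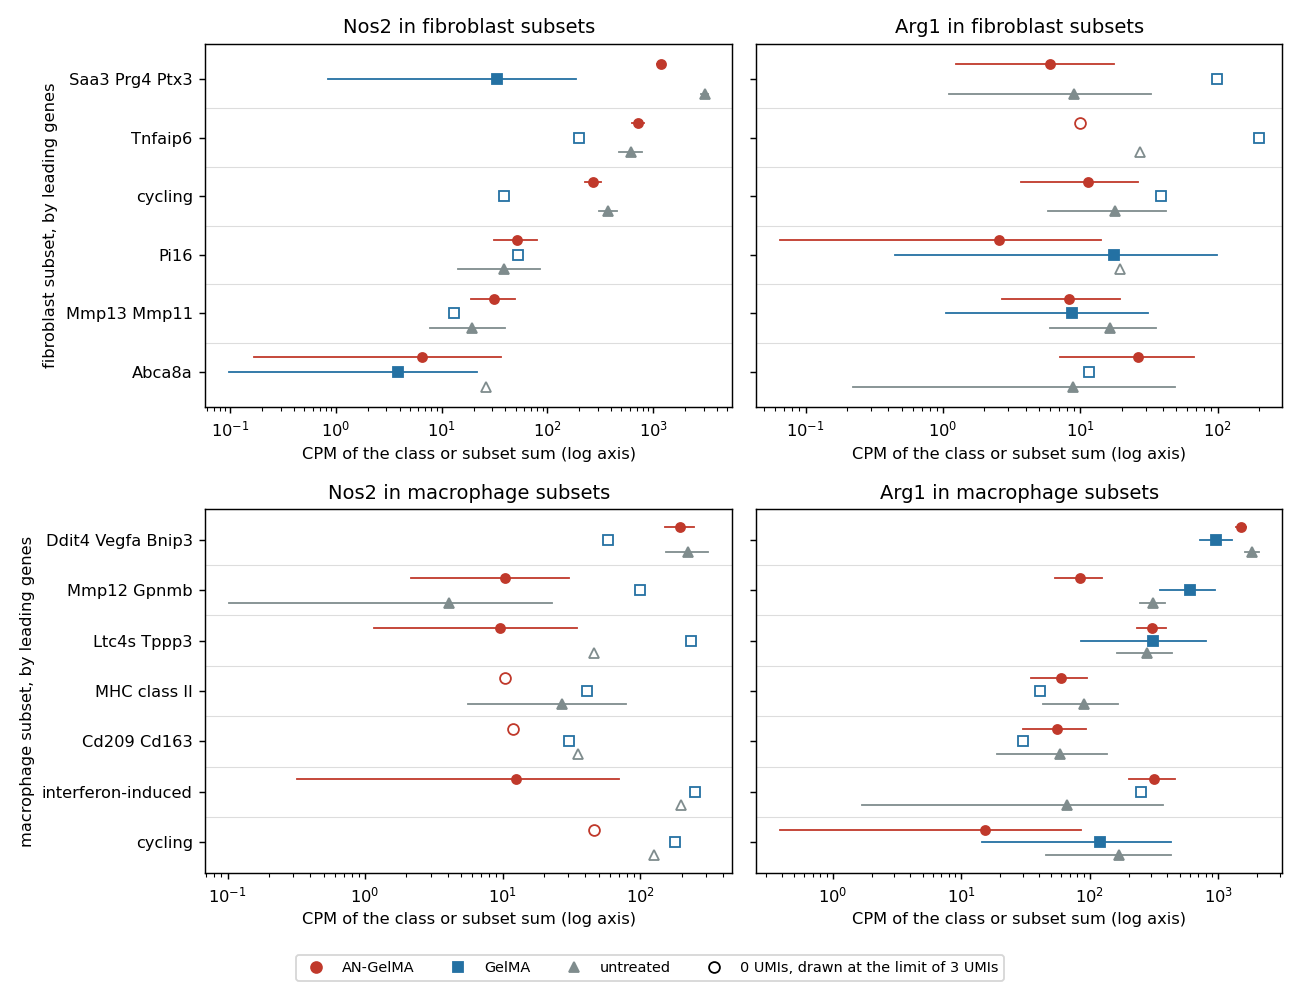
Levels of Nos2 and Arg1 in CPM on a log axis in subsets of fibroblasts (top) and macrophages (bottom), named by leading genes and without those led by markers of another class, with 1 point per library, its 95% Poisson interval, and open symbols at the limit of 3 UMIs where 0 were counted. Nos2 peaked in the Saa3 fibroblasts at 1178 CPM in AN-GelMA and 3063 CPM in the untreated wound, and both genes peaked in the Ddit4, Vegfa and Bnip3 macrophages.

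Macrophages, the cells in which Nos2 is usually discussed, held 77 UMIs in 25 cells in AN-GelMA, 1 UMI in 1 cell in GelMA and 43 UMIs in 13 cells in the untreated wound. The levels were 48.3 (38.1 to 60.3), 2.89 (0.0731 to 16.1) and 56.9 (41.2 to 76.6) CPM in that order. The log2 ratio was 4.06 (1.54 to 9.39) for AN-GelMA over GelMA and -4.30 (-9.64 to -1.75) for GelMA over untreated, both with wide intervals because GelMA rests on a single UMI. AN-GelMA over untreated was -0.24 (-0.79 to 0.34), an interval that includes 0. That near-equality depended on the settings: it was 1.59 among cells with at least 1000 UMIs and -0.90 when each cell was assigned to its class by its own markers. The share of macrophages with a Nos2 UMI was 1.63% (1.05 to 2.39) in AN-GelMA, 0.259% (0.00656 to 1.43) in GelMA and 1.98% (1.06 to 3.37) in the untreated wound, at median depths of 878, 746 and 988 UMIs. In keratinocytes, which served as the background class, it was 1.05%, 0.116% and 1.24% at 1412, 1646 and 1352 UMIs. The GelMA macrophage share rests on 1 cell and could not be told from that background. The untreated interval held its background value too, and the AN-GelMA interval began at its own. Keratinocytes were also deeper. Thinned as for fibroblasts, macrophage shares were 1.32% (0.705 to 2.25), 0.602% (0.0153 to 3.31) and 1.64% (0.751 to 3.08), in that order. Keratinocyte shares were then 0.416% (0.228 to 0.697), 0.026% (0.000658 to 0.145) and 0.572% (0.296 to 0.997). Only the AN-GelMA intervals stood apart, and narrowly.

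The macrophage Nos2 was concentrated in one subset. That subset was led by Ddit4, Vegfa, Thbs1, Hmox1 and Bnip3, genes of the response to low oxygen and stress, and by the chemokines Cxcl1 and Cxcl2. Its cells held 71 of the 77 AN-GelMA UMIs and 34 of the 43 untreated ones. Their level was 195 (152 to 245) CPM in 382 AN-GelMA cells, 0 UMIs in 65 GelMA cells and 223 (155 to 312) CPM in 152 untreated cells. Set against the limit of 3 UMIs per sum, the AN-GelMA level was higher than that of GelMA by at least 1.75 on the log2 scale. The 10 richest macrophages held 77.9% of the Nos2 UMIs of AN-GelMA macrophages and 93.0% of those of untreated macrophages. The Cd209 and Cd163 subset, resident-type macrophages, had 0 Nos2 UMIs in all 3 libraries, from 267, 116 and 83 cells. The Mmp12 and Gpnmb subset, wound macrophages with lysosomal genes, had 3, 0 and 1 UMIs. RNA of fibroblasts was present in the macrophage sums: the 12 fibroblast markers summed to 616, 762 and 828 CPM there, against 33893, 28229.5 and 33944 CPM in fibroblasts. In macrophages with a Nos2 UMI they summed to 830.4 CPM in AN-GelMA and 1650.4 CPM in the untreated wound, above the 611 and 813 CPM of those without. In both libraries 7 of the 12 markers were detected in the Nos2-positive macrophages, and Pdgfra, Lum and Dpt were among those at 0. Lum and Dpt were also at 0 in all 386 GelMA macrophages. A marker at 0 in the few Nos2-positive cells is therefore not read as absence. In the AN-GelMA library, Nos2 itself stood at 48.3 CPM in macrophages beside 399 CPM in fibroblasts. The part of fibroblast RNA in macrophage Nos2 was not tested.

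Among the named classes Arg1 had its highest level in macrophages, which held most of its UMIs in 2 of the 3 libraries. Macrophages held 72.5% of all Arg1 UMIs in AN-GelMA, 12.1% in GelMA and 68.5% in the untreated wound. The macrophage level was 435 (403 to 469) CPM in AN-GelMA, 214 (168 to 268) in GelMA and 572 (519 to 628) in the untreated wound, and the 3 intervals did not overlap. The log2 ratio was 1.03 (0.68 to 1.39) for AN-GelMA over GelMA, -1.42 (-1.80 to -1.06) for GelMA over untreated and -0.39 (-0.57 to -0.22) for AN-GelMA over untreated, the last within 1.5 times. Keratinocyte markers in the macrophage sums were highest in GelMA, with 17 markers summing to 712, 1310.0 and 807 CPM in AN-GelMA, GelMA and untreated macrophages. A macrophage subset led by Krt75, Krt14 and Krt79 was 2.28%, 12.4% and 6.87% of them. Without the subsets led by markers of another class the Arg1 log2 ratios were 0.84 for AN-GelMA over GelMA and -1.17 for GelMA over untreated. An Arg1 UMI was seen in 14.3% (12.6 to 16.2) of macrophages in AN-GelMA, 5.70% (3.61 to 8.50) in GelMA and 16.9% (14.2 to 20.0) in the untreated wound. Thinned to 800 UMIs the shares were 14.6%, 6.02% and 16.0%, with 554, 220 and 105 shallower cells left out. The background was low, with 0.841%, 0.624% and 1.51% of fibroblasts at 1021, 874 and 1045 UMIs. After macrophages, the AN-GelMA order ran on to keratinocytes at 33.7 (29.4 to 38.3) CPM and neutrophils at 32.2 (6.64 to 94.1), whose intervals overlapped, and to fibroblasts at 7.82 (4.71 to 12.2). Pericytes, melanocytes and adipocytes had 0 Arg1 UMIs in all 3 libraries.

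The subset of macrophages that held Nos2 was also the one with the most Arg1. The Ddit4, Vegfa and Bnip3 cells had 1499 (1376 to 1630.3) CPM in AN-GelMA, 967 (717 to 1274) in GelMA and 1825 (1617 to 2053) in the untreated wound. Their Arg1 came from 144 of 382, 13 of 65 and 63 of 152 cells. The finer division had a subset led by Ddit4, Cxcl2 and Vegfa, with 153, 12 and 65 cells in AN-GelMA, GelMA and untreated wounds. Its Arg1 was 2375 CPM in AN-GelMA, 34 UMIs in GelMA and 2856 CPM in the untreated wound. The Mmp12 and Gpnmb subset had 83.1 (53.2 to 124) CPM in AN-GelMA, 18 UMIs in 27 GelMA cells and 309.7 (244 to 388) in the untreated wound. For this subset the log2 ratio of AN-GelMA over untreated was -1.90 (-2.63 to -1.22), the lower value being in AN-GelMA. The Ltc4s and Tppp3 subset had 304 CPM in AN-GelMA, 4 UMIs in 16 GelMA cells and 277 CPM in the untreated wound, with overlapping intervals. The Cd209 and Cd163 cells had 55.6 CPM in AN-GelMA, 0 in GelMA and 58.7 in the untreated wound, and they were 17.4%, 30.1% and 12.7% of the macrophages. With the same mix of subsets in every library, the Arg1 log2 ratio in macrophages was 0.13 for AN-GelMA over GelMA and -0.60 for GelMA over untreated. The AN-GelMA over GelMA call ended under that setting. Its GelMA side rests in part on small subsets, such as the 18 UMIs in 27 cells above. The part of subset sizes in the Arg1 level was not tested.

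Arg1 was also an epidermal and hair follicle gene, and there it did not follow the macrophage order. Keratinocytes had 33.7 (29.4 to 38.3) CPM in AN-GelMA, 29.2 (25.8 to 33.0) in GelMA and 32.0 (26.8 to 38.0) in the untreated wound, with overlapping intervals. Within them a cluster led by Chil1, Il36a and Casp14, genes of late epidermal differentiation and epidermal inflammation, had 174 (148 to 203), 161 (138 to 186) and 87.6 (62.9 to 119) CPM in AN-GelMA, GelMA and untreated wounds. These levels rest on 29, 21 and 15 cells, and the richest GelMA cell alone gave 80 of the 183 UMIs there. Over all keratinocytes the 10 richest cells held 63.2%, 73.9% and 61.1% of the Arg1 UMIs. A keratinocyte cluster led by Sprr1b, Krt16 and Krt6b, genes of injured epidermis, had 26.4, 25.7 and 71.2 (55.2 to 90.4) CPM, highest in the untreated wound. In the GelMA library the inner root sheath cells with Krt71 and Tchh, which form the layer around the hair shaft, held 224 Arg1 UMIs at 112 (97.8 to 128) CPM. That library kept 43.1% of its Arg1 UMIs in keratinocytes and 38.5% in hair follicle inner layers. Over all cells the Arg1 level was 72.7, 30.7 and 75.4 CPM in AN-GelMA, GelMA and untreated wounds, so a bulk value would mix these sources.

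**Figure D3:**
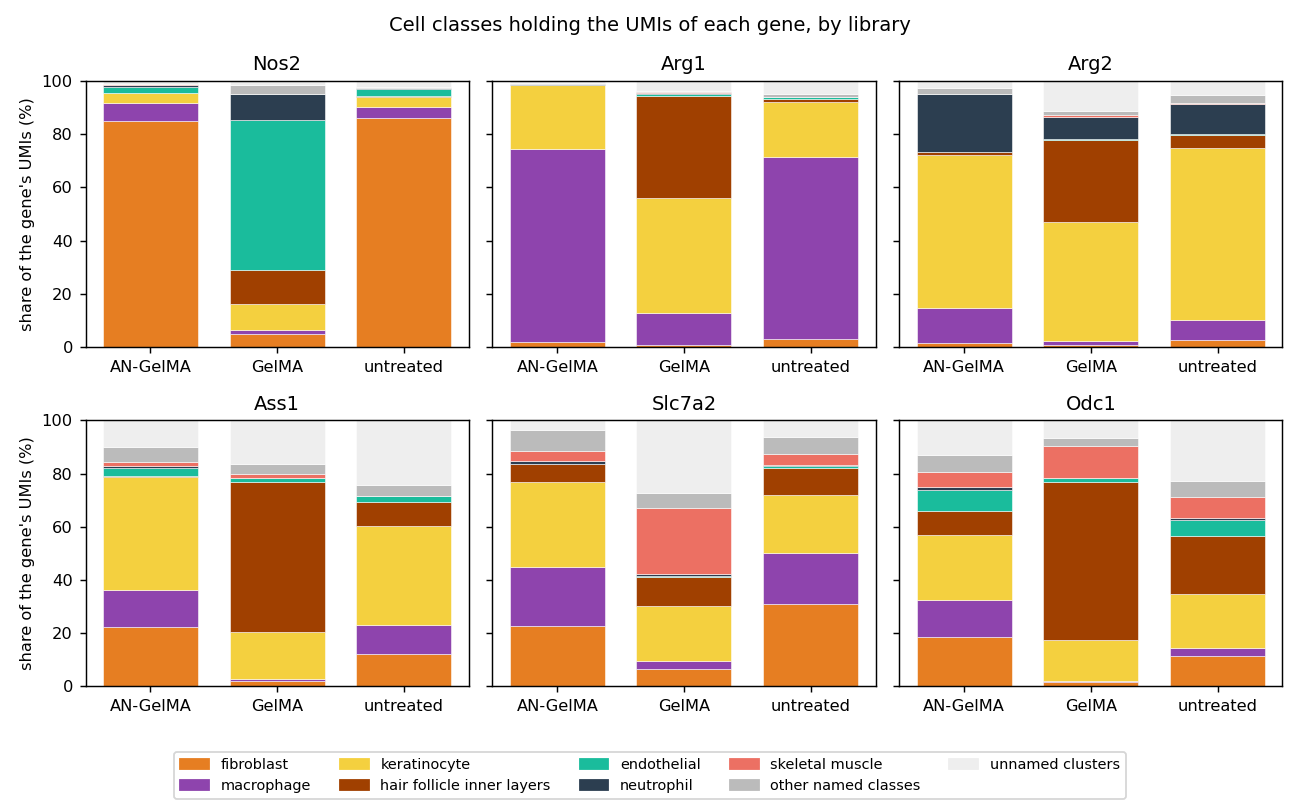
Share of each gene's UMIs, in percent, held by each cell class, as stacked bars with 1 bar per library and 1 panel per gene. Fibroblasts held 85.0% of Nos2 UMIs in AN-GelMA and 86.0% in the untreated wound, macrophages 72.5% and 68.5% of Arg1, and in GelMA endothelial, keratinocyte and hair follicle cells took most of both genes.

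An Arg1 UMI was often seen in macrophages with a Nos2 UMI and rarely in fibroblasts with one. The reverse was uncommon: of the 220 AN-GelMA macrophages with an Arg1 UMI, 12 also had a Nos2 UMI. Of the macrophages with a Nos2 UMI, 12 of 25 in AN-GelMA also had an Arg1 UMI, 48.0% (27.8 to 68.7). In GelMA it was 0 of 1, and in the untreated wound 10 of 13, 76.9% (46.2 to 95). Of the macrophages without a Nos2 UMI, Arg1 was seen in 13.7% (12.1 to 15.6) in AN-GelMA, 5.71% (3.62 to 8.52) in GelMA and 15.7% (13 to 18.8) in the untreated wound. In AN-GelMA and untreated macrophages, Arg1 was seen more often in cells with Nos2 than in all cells without, at median depths of 1109 against 876 UMIs in AN-GelMA and 936 against 988 in the untreated wound. The Ddit4, Vegfa and Bnip3 subset, which held most of the Nos2, had an Arg1 UMI in 37.7% (32.8 to 42.8) of its AN-GelMA cells and 41.4% (33.5 to 49.7) of its untreated cells, intervals that overlap those of the Nos2-positive cells. Cells of 1 library share their source, so these shares are a description. In fibroblasts with a Nos2 UMI, Arg1 was seen in 0 of 198 cells in AN-GelMA, 1 of 3 in GelMA and 2 of 146 in the untreated wound. Of the fibroblasts without a Nos2 UMI it was 17 of 1823, 3 of 638 and 14 of 916. At these depths a cell without a UMI may still express the gene. The arginine carrier Slc7a2 was seen in 0 of 25, 0 of 1 and 0 of 13 Nos2-positive macrophages, too few cells to read as absence. In Arg1-positive AN-GelMA macrophages it was seen in 15 of 220, 6.82% (3.87 to 11.0), against 3.41% (2.50 to 4.54) of those without Arg1.

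**Figure D4:**
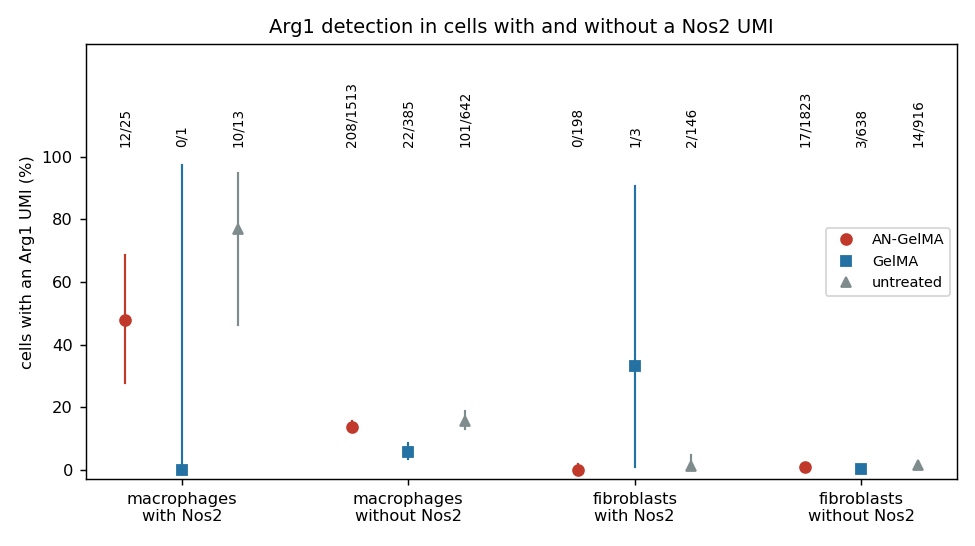
Share of cells with an Arg1 UMI, in percent, among macrophages and fibroblasts with and without a Nos2 UMI, with 1 point per library, its 95% Clopper-Pearson interval and the cell counts above. Among macrophages with Nos2 the share was 48.0% in AN-GelMA and 76.9% in the untreated wound; among fibroblasts it stayed near 0 apart from 1 of 3 cells in GelMA.

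Arg2, the mitochondrial arginase, had its highest level in neutrophils, while keratinocytes, being many, held 57.5%, 44.6% and 64.8% of its UMIs in AN-GelMA, GelMA and untreated wounds. The neutrophil level was 1041 (844 to 1269.5) CPM in 99 AN-GelMA cells, 304 (214 to 419.7) in 93 GelMA cells and 619 (401 to 914) in 37 untreated cells. AN-GelMA over GelMA was a log2 ratio of 1.77 (1.21 to 2.36); the untreated wound had fewer than 50 neutrophils and was not compared. Neutrophils of the wound and any left from the loaded gel cannot be told apart in AN-GelMA. In macrophages Arg2 was 37.6 (28.7 to 48.4), 17.3 (6.35 to 37.7) and 22.5 (13.1 to 36.0) CPM in AN-GelMA, GelMA and untreated wounds. The Ddit4, Vegfa and Bnip3 macrophages again had the highest AN-GelMA level of the macrophage subsets, with 93.2, 58.0 and 78.8 CPM from 34, 3 and 12 UMIs. Neutrophil markers summed to 401, 372 and 230.2 CPM in macrophages and to 19289.6, 17651 and 15412 CPM in neutrophils; their part in macrophage Arg2 was not tested. Keratinocytes had 38.0 (33.5 to 42.9) CPM in AN-GelMA, 22.2 (19.2 to 25.5) in GelMA and 35.9 (30.4 to 42.2) in the untreated wound, lower in GelMA than in either other library. Upper follicle keratinocytes with Krt79 and Gata6 were the highest keratinocyte cluster, at 87.7, 69.3 and 83.6 CPM, with overlapping intervals. Fibroblasts had 6, 4 and 6 UMIs, too few to compare.

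Slc7a2, the arginine carrier, was spread over mesenchymal, muscle and follicle cells. Pericytes and smooth muscle cells, which wrap small vessels, had 181 (104 to 294), 121 (66.3 to 203) and 121 (66.4 to 204) CPM in AN-GelMA, GelMA and untreated wounds, with overlapping intervals. The hair follicle inner layers had 285 (183 to 424) CPM in 44 AN-GelMA cells, 10.9 (8.31 to 14.0) in GelMA and 111 (73.7 to 160.3) in the untreated wound. Fibroblasts had 32.9 (26.1 to 41.0) CPM in AN-GelMA, 52.7 (36.9 to 73.0) in GelMA and 65.8 (52.5 to 81.5) in the untreated wound. AN-GelMA fibroblasts were the lowest, with log2 ratios of -0.68 (-1.26 to -0.07) over GelMA and -1.0 (-1.46 to -0.54) over untreated. The Mmp13 and Mmp11 fibroblasts held 42 of 80, 17 of 36 and 48 of 84 of these UMIs, at 69.6, 73.8 and 132 CPM, while the Nos2-rich Saa3 fibroblasts had 18.2 CPM in AN-GelMA and 18.1 in the untreated wound. The subset with the most Nos2 was thus not the one with the most Slc7a2. Macrophages had 48.3 (38.1 to 60.3), 49.1 (28.6 to 78.5) and 67.5 (50.2 to 88.7) CPM, within 1.5 times of each other. Inside them the Mmp12 and Gpnmb subset had 114 CPM in AN-GelMA, 9 UMIs in GelMA and 85.6 CPM in the untreated wound, and the Cd209 and Cd163 subset 3.97, 20.3 and 11.7 CPM. In the Ddit4, Vegfa and Bnip3 macrophages AN-GelMA was lower than the untreated wound, at 41.1 against 144 CPM and a log2 ratio of -1.81 (-2.86 to -0.80). Skeletal muscle had 57.7 (31.6 to 96.9) CPM in AN-GelMA, 99.5 (83.6 to 118) in GelMA and 47.1 (23.5 to 84.3) in the untreated wound. Keratinocytes of the cluster led by Tbx1 and Lhx2 had 280.5, 54.6 and 184 CPM.

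Odc1 was highest in hair follicle cells in all 3 libraries, and Ass1 among the named classes of GelMA and the untreated wound. Odc1 was highest in the hair matrix-type cells led by Krt35, Mycn and Lef1, with 723 (532 to 962) CPM in 37 AN-GelMA cells, 488 (459 to 519) in 1116 GelMA cells and 723 (595 to 871) in 114 untreated cells. Skeletal muscle had 140.2, 170.1 and 176 CPM. Ass1 in the hair follicle inner layers of GelMA stood at 59.7 (53.4 to 66.4) CPM, from 335 UMIs in 2701 cells. In the untreated wound it was 31.7 CPM, from 8 UMIs in 188 cells. The log2 ratio of GelMA over untreated was 0.91 (-0.08 to 2.14), an interval that includes no difference. AN-GelMA had 1 UMI in 44 cells, too few to compare. Over 76 sums of cluster and library with at least 50 cells, Ass1 and Odc1 had the highest correlation of any pair of the 6 genes, a Pearson r of 0.568 in log2 CPM, followed by Slc7a2 and Odc1 at 0.395 and Nos2 and Arg1 at 0.289. These sums share libraries and cell classes and are not independent.

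Promoter sequences of RefSeq on GRCm38.p6 matched 2 of the 7 genes, and they are the pair above. The 250 bases before each start are printed 5′ to 3′ to show which of 2 common motifs each holds; capitals mark the E-box CACGTG, the site of Myc-type factors, and the GC box GGGCGG on either strand. Ass1 lies at chr2:31470020-31470269 and Odc1 at chr12:17544623-17544872, both on the plus strand of that build, which is not the build of the counts.
Ass1: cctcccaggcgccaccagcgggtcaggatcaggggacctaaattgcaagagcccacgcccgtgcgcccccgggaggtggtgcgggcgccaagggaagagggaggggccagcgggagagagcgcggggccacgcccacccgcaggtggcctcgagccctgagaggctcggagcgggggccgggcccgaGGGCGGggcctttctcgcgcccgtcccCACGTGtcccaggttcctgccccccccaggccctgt
Odc1: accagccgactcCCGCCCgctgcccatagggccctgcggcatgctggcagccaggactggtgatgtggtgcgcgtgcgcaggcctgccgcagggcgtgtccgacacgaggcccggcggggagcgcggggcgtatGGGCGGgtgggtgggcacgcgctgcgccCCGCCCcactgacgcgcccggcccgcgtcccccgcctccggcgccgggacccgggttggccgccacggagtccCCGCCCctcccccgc
The Ass1 window held 1 E-box and 1 GC box, and the Odc1 window 0 E-boxes and 4 GC boxes. Of all 32851 windows of the same length in the table, 6.02% held the E-box and 32.7% the GC box. A match is a description of the letters and not of binding.

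Outside the follicle, Odc1 and Ass1 differed between libraries in few classes. Macrophage Odc1 was 51.4 (40.9 to 63.8) CPM in AN-GelMA, 14.4 (4.68 to 33.7) in GelMA and 19.8 (11.1 to 32.7) in the untreated wound. The AN-GelMA level was above both others, at log2 ratios of 1.83 (0.55 to 3.49) over GelMA and 1.37 (0.57 to 2.27) over untreated. The first was 0.28 with each cell assigned to its class by its own markers. The Ddit4, Vegfa and Bnip3 subset held 40 of the 82 AN-GelMA UMIs, at 109.6 CPM, against 0 UMIs in GelMA and 26.3 CPM in the untreated wound. Thus Nos2, Arg1, Arg2 and Odc1 all had their highest AN-GelMA level among macrophage subsets in the same cells. Endothelial Odc1 was 120.3, 65.8 and 71.7 CPM in AN-GelMA, GelMA and untreated wounds, and keratinocyte Odc1 20.8, 33.7 and 25.9. Fibroblast Odc1 was level, at 44.1, 51.3 and 47.8 CPM. Fibroblast Ass1 was 12.8, 19.0 and 8.62 CPM, and 20 of its 31 AN-GelMA UMIs lay in the Mmp13 and Mmp11 subset. Macrophage Ass1 was 12.5, 11.5 and 13.2 CPM from 20, 4 and 10 UMIs. A small subset of the finer division, led by Slc7a11, Ppbp and Clec4e, had 107 CPM of Ass1 and 275 CPM of Slc7a2 in 67 AN-GelMA cells, and 4 and 9 UMIs in 24 untreated cells.

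AN-GelMA against GelMA asks what the apoptotic neutrophils add to the gel. The libraries also differed in tissue make-up, from which the neutrophils cannot be told apart. Hair follicle inner layers were 0.484% of AN-GelMA and 25.3% of GelMA cells, and skeletal muscle 1.83% and 7.63%. In macrophages 4 of the 6 genes were higher (Nos2, Arg1, Odc1 and Arg2, the last at 1.12 (-0.09 to 2.62)) and 0 lower, where 29.6% of 9067 genes passed the same ratio in either direction, 11.2% upwards and 18.5% downwards. In fibroblasts 1 of the 5 genes with enough UMIs was higher (Nos2) and 1 lower (Slc7a2), where 28% of 10661 genes passed, 10.1% upwards and 17.9% downwards. GelMA against untreated asks what the gel does without neutrophils, and the gel cannot be told apart from the UV light that hardens it. Nor can it be told apart from tissue make-up, those shares being 3.29% and 3.04% in the untreated wound. In macrophages 2 of 5 genes were lower (Nos2 and Arg1) and 0 higher, where 29.1% of 8015 genes passed, 17.4% upwards and 11.7% downwards. In fibroblasts 2 of 5 were lower (Nos2 and Arg1, the second from 5 and 19 UMIs) and 1 higher (Ass1, from 13 and 11 UMIs), and the intervals of Arg1 and Ass1 include 0, where 26.2% of 9991 genes passed, 16.2% upwards and 9.94% downwards. AN-GelMA against untreated sets the whole treatment, UV light included, against none. In macrophages 2 of 6 genes were higher (Odc1, and Arg2 at 0.74 (-0.05 to 1.61)) and 0 lower, where 16.1% of 9339 genes passed, 7.42% upwards and 8.64% downwards. In fibroblasts 3 of 5 were lower (Nos2, Slc7a2 and Arg1) and 0 higher, where 11.3% of 10806 genes passed, 5.08% upwards and 6.18% downwards. Arg1 there rests on 19 UMIs in each library, and its interval includes 0. The 3 comparisons share libraries, and the genes were chosen with such values known, so nothing is read from these counts.

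**Figure D5:**
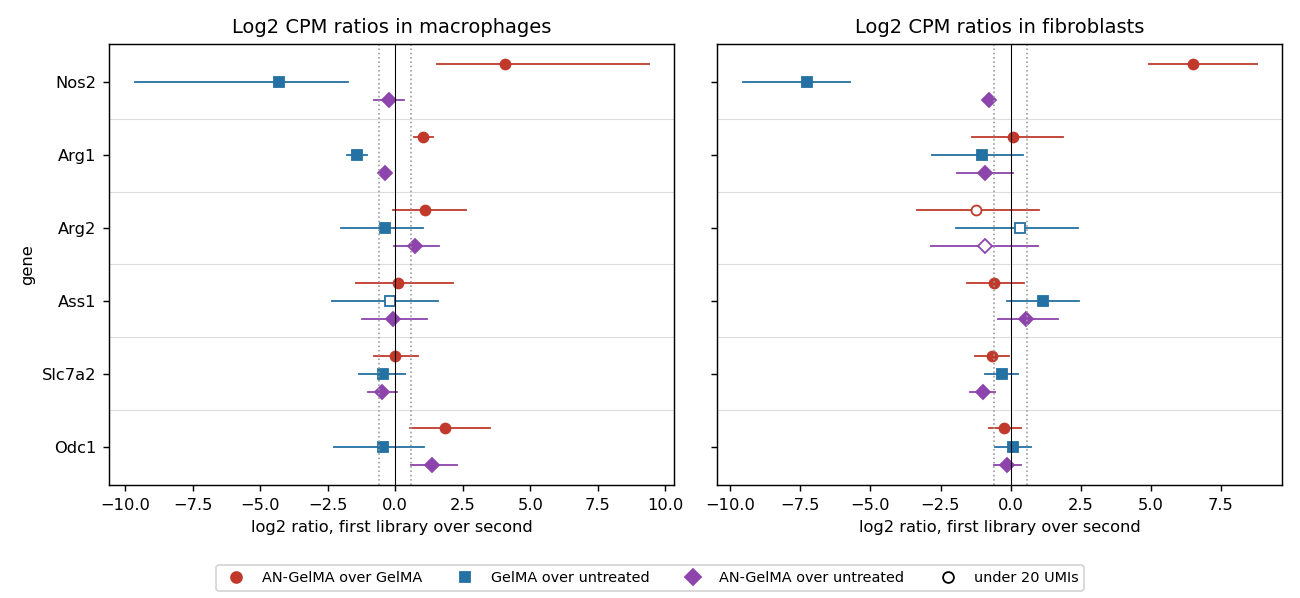
Log2 CPM ratios of the 6 genes in macrophages (left) and fibroblasts (right), with 1 symbol per comparison, exact 95% counting intervals, open symbols under 20 UMIs and dotted lines at a ratio of 1.5. Nos2 stands out at 6.50 for AN-GelMA over GelMA and -7.27 for GelMA over untreated in fibroblasts, against -0.77 for AN-GelMA over untreated; Odc1 stands at 1.83 and 1.37 in macrophages for AN-GelMA over GelMA and over untreated.

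The wider pathway was read from lists of 49 genes for arginine transport, nitric oxide synthesis, ornithine and proline, polyamines, creatine and the nitric oxide response, 46 of them with a feature. In macrophages, of 33 list genes with at least 20 UMIs in AN-GelMA and GelMA together, 12 were higher and 7 lower in AN-GelMA, with a median log2 ratio of 0.12 beside -0.09 over all genes. In GelMA against untreated 2 of 24 were higher and 8 lower, with a median of -0.39 beside 0.07. In AN-GelMA against untreated 5 of 33 were higher and 2 lower, with a median of -0.08 beside -0.01. By list, AN-GelMA over GelMA had 2 higher and 0 lower of 4 for arginine transport, 4 higher and 1 lower of 9 for nitric oxide synthesis and citrulline recycling, 2 higher and 4 lower of 7 for ornithine and proline and 3 higher and 1 lower of 11 for polyamines. By list, GelMA over untreated had 0 higher and 2 lower of 4 for arginine transport, 0 higher and 3 lower of 6 for nitric oxide synthesis and citrulline recycling, 2 higher and 1 lower of 6 for ornithine and proline and 0 higher and 1 lower of 7 for polyamines. Azin1, which protects ornithine decarboxylase from breakdown, was 200.04 CPM in AN-GelMA and 86.6 in GelMA, at 1.21 (0.67 to 1.8), and GelMA over untreated was -1.26 (-1.88 to -0.69). Slc7a7, an exporter of arginine, stood at 1.19 (-0.27 to 3.13) and -1.27 (-3.27 to 0.30) in those comparisons. Aldh18a1, which makes the proline precursor from glutamate, was lower in AN-GelMA macrophages than in GelMA at -1.34 (-2.47 to -0.13) and than in untreated at -1.51 (-2.42 to -0.62). Among 8 known inducers of Arg1, 3 were higher and 0 lower in AN-GelMA over GelMA, where 11.2% of all genes were higher and 18.5% lower. In GelMA over untreated 3 were lower and 0 higher, where 11.7% of all genes were lower and 17.4% higher. The other list counts stand against the same shares, and nothing is read from lists this short. Cebpb, a factor that drives Arg1 in myeloid cells, was 886 CPM in AN-GelMA, 297 in GelMA and 753 in the untreated wound, the highest level being in AN-GelMA. Of 10 known inducers of Nos2, 1 was higher and 1 lower in AN-GelMA over GelMA macrophages, and 1 of 9 was higher and 0 lower in GelMA over untreated ones.

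In fibroblasts, of 37 list genes 6 were higher and 8 lower in AN-GelMA over GelMA, with a median of -0.02 beside -0.10 over all genes. In GelMA over untreated 8 of 34 were higher and 4 lower (median -0.01 beside 0.08), and in AN-GelMA over untreated 2 of 37 were higher and 4 lower (median -0.11 beside -0.01). By list, AN-GelMA over GelMA had 1 higher and 1 lower of 5 for arginine transport, 4 higher and 0 lower of 10 for nitric oxide synthesis and citrulline recycling, 0 higher and 2 lower of 7 for ornithine and proline and 0 higher and 2 lower of 11 for polyamines. Gch1, the first enzyme of the cofactor that nitric oxide synthases need, was 32.1 CPM in AN-GelMA and 16.1 in GelMA, at 0.99 (0.08 to 2.06). Gucy1b1 and its partner Gucy1a1, the subunits of the nitric oxide receptor, ran the other way from Nos2. Gucy1b1 was -1.35 (-2.23 to -0.44) in AN-GelMA over GelMA and 2.42 (1.12 to 3.90) in GelMA over untreated, and Gucy1a1 1.32 (0.28 to 2.39) in the second. Pde5a, which breaks down the messenger made by that receptor, was higher in AN-GelMA over GelMA at 2.98 (0.38 to 8.33), from 28 against 1 UMIs. Il4ra, a receptor chain for interleukins 4 and 13, was 455, 217 and 364 CPM in AN-GelMA, GelMA and untreated fibroblasts. Prodh, which breaks down proline, was lower in AN-GelMA than in GelMA at -1.59 (-2.30 to -0.88). The lists hold the 6 genes above and were made with earlier results of these data known, so no list is read as particular.

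By Pearson correlation of log2 CPM over the 76 sums of cluster and library, among 10462 genes with at least 500 UMIs, the pattern of Nos2 was most like those of Cxcl1 (0.803), Saa3 (0.792), Cxcl5 (0.705), Ackr3 (0.693) and Tnfaip6 (0.677). Cxcl1 and Cxcl5 encode chemokines that attract neutrophils, and Saa3 an acute-phase protein. For Arg1 the nearest were F7 (0.717), Hk3 (0.696), Cd300lb (0.693), Trem2 (0.684) and Hmox1 (0.677), among them the coagulation factor VII gene, a hexokinase and the haem-degrading enzyme. For Arg2 they were Rhov (0.635), Cd14 (0.622) and Il1rn (0.619), and for Odc1 Pabpc4 (0.688), Tsr2 (0.602) and Chek1 (0.595). Those of Ass1 were Eif2s1 (0.627), Pcdh7 (0.611) and Stra6 (0.610), and those of Slc7a2 Vill (0.661), Cfap410 (0.635) and Arhgef25 (0.632). The sums share libraries, depth and cell classes, so these values describe likeness only.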

How the data were processed

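The deposited data are 1 library per group of whole-number UMI counts per gene and cell barcode. The authors used Cell Ranger, version 10.0.0 in the file headers, and the genome GRCm39 (mm39), per the submitters' processing notes. The AN-GelMA files carry the word Heat, which the labels do not explain. The assay counts pairs of probes, so a level depends on the probes of each gene, and levels are not per length. The genes, the lists and the marker sets were chosen with earlier results of these data known.

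From those counts, cells were kept from 400 UMIs and 250 genes upwards, with no more than 10% mitochondrial UMIs. Scrublet called 1 to 2 doublets per library, too few to have worked, so the 5% of cells with the highest doublet scores were removed in each library. Counts were scaled to 10000 per cell and log-transformed in Scanpy 1.11.5, and 2000 variable genes without the 64 list genes that have a feature entered 30 principal components, 15 neighbours and Leiden clustering at resolution 1. A cluster was named only from 17 marker sets, with at least 3 detected markers of the class, and 5 of 33 clusters stayed unnamed. Macrophages and fibroblasts were clustered again at resolution 0.5, and at 1 for the finer division.

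Raw counts were summed by class and library. Cells of 1 library are not replicates and the libraries may each hold any number of mice, so no p-value was computed. Exact Poisson intervals (levels), conditional binomial intervals (ratios) and Clopper-Pearson intervals (shares) at 95% cover counting error only. The ratio calls and ratio intervals were tested on simulated Poisson counts. Those counts leave out the concentration of UMIs in few cells, and filtering, clustering and naming were not simulated. The 7 genes are all named; of other list genes, at most the 4 highest and 4 lowest past a ratio of 1.5 per class and comparison are named, and the 5 or 3 genes most like each member by correlation. Alternatives were other depth cuts, doublets kept, another resolution, class per cell, pathway genes kept, thinning, background taken off and a fixed mix of subsets; 2 more, leaving out subsets led by markers of another class and cells with a shared barcode, were chosen after seeing the data. The Ass1 level of 1 keratinocyte cluster is not reported here.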

Additional observations from a re-analysis of the deposited data

Results flagged for a closer look

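Odc1 differed in opposite directions between cell classes in AN-GelMA over GelMA. The log2 ratio was 1.83 in macrophages and 0.87 in endothelial cells, against -0.69 in keratinocytes. The macrophage value was 0.28 with the class set per cell. Keratinocytes were not the same mix in AN-GelMA and GelMA. Those led by Tbx1 and Lhx2 numbered 209 and 1207, and those led by Sprr4 and Klk10 108 and 661. The difference between classes was not tested. Slc7a2 also differed in opposite directions in GelMA over untreated, at 1.08 in skeletal muscle and -3.35 in the hair follicle inner layers. That difference was not tested either.

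Some clusters that no marker set named, and that the class comparisons leave out, carried high levels of these genes. Ass1 was at 83.3 CPM in the untreated cells of a cluster led by Duxf3 and vomeronasal receptor genes. Slc7a2 was at 357 CPM in the GelMA cells of a cluster led by Dmbt1, Krt19 and Krt75, where 1 cell gave 41 of 140 UMIs. In a cluster led by Krt84 and found in GelMA, Ass1 was at 251 CPM and Odc1 at 296 CPM.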

How the results depend on the processing

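No paired analysis was possible because a group is a single library, and for the same reason no library could be left out. Among the macrophage and fibroblast ratios, those called kept their sign under the alternatives; ratios in other classes and in subsets were not recomputed. Nos2 in fibroblasts kept its calls against GelMA, at 5.42 to 8.31 for AN-GelMA over GelMA and -9.03 to -6.38 for GelMA over untreated. Its AN-GelMA over untreated ratio was -0.58 with the class set per cell, which ends the call, -0.63 in thinned cells and -0.96 with the same mix of subsets. Nos2 in macrophages was -1.53 for GelMA over untreated and 1.59 for AN-GelMA over untreated among cells with at least 1000 UMIs, and -0.90 for the last with the class set per cell. Arg1 in macrophages was 0.13 for AN-GelMA over GelMA and -0.60 for GelMA over untreated with the same mix of subsets, small GelMA ones included. It was -0.016 for AN-GelMA over untreated with the class set per cell. Of the pathway genes past 1.5 times in macrophages, AN-GelMA over GelMA had 19, with 10 at 1000 UMIs per cell, 3 at 100 UMIs per gene and 9 at a ratio of 2; GelMA over untreated had 10, with 4, 3 and 6 under those settings, 16 with doublets kept and 22 with no minimum. AN-GelMA over untreated had 7, with 1 at 100 UMIs and 4 at a ratio of 2. In fibroblasts AN-GelMA over GelMA had 14, with 23 once the lowest class level was taken off, 3 at 100 UMIs and 8 at a ratio of 2. GelMA over untreated had 12, with 2 and 7, and AN-GelMA over untreated 6, with 13, 3 and 1 under those 3 settings and 12 with no minimum. For these values the cause was not tested, apart from the smaller number of genes that a stricter minimum leaves. Slc7a2 in macrophages, not called for AN-GelMA over GelMA, ran from -1.06 to 2.07 there. Of the values for Nos2 in both classes, Arg1 in macrophages and the pathway counts, 155 kept within the bounds set for them and 28 did not. Of the other gene ratios and the shares of cells with a UMI, 296 did and 13 did not. GelMA macrophages and fibroblasts are few, with 386 and 641 cells, which limits what can be detected there.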
